A study of Mus musculus with 24 samples.

Results

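The 10 genes described here encode receptors and signalling proteins that keep B cells inside the germinal centre (GC) or guide them between its zones and out of it. They are the sphingosine-1-phosphate receptors S1pr1, S1pr2 and S1pr4, the G protein subunit Gna13 with its effector Arhgef1, the oxysterol receptor Gpr183, and the chemokine receptors Cxcr4, Cxcr5, Ccr6 and Ccr7. They were chosen by name, as 10 of 18058 protein-coding genes with an accessible region nearby. Each was given every consensus peak of accessible chromatin that overlapped its body extended by 50 kb on each side (its window, GENCODE M21 annotation, mm10/GRCm38). This gave 175 of 65483 peaks, from 10 at S1pr1 to 27 at Cxcr5, and 0 of them lay in more than 1 of the windows. A window is set by distance alone, so its peaks need not act on the named gene. No other protein-coding gene reached into the windows of S1pr1, Cxcr4 and Ccr7, whereas the other windows held between 2 and 7 further coding genes.

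B cells in a GC cycle between a dark zone, where centroblasts (CBs) divide, and a light zone, where centrocytes (CCs) test their antigen receptor and receive T cell help. S1PR2 senses sphingosine-1-phosphate, which is scarce inside the follicle, and acts through Gα13 and the exchange factor ARHGEF1 to stop cells from moving outwards, whereas S1PR1 responds to the same lipid by promoting exit into the circulation. CXCR4 draws cells to the dark zone and CXCR5 to the follicle and light zone, and GPR183 and CCR7, which guide activated B cells to the follicle edge and the T cell zone, are low in GC B cells.

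Chromatin accessibility was measured by ATAC-seq, in which a transposase inserts sequencing adapters into open DNA, in GC B cells sorted from mouse spleen 10 days after immunization with sheep red blood cells (SRBC). There were 4 WT mice (Cγ1cre/+), 4 C mice (Cγ1cre/+;Crebbpfl/+), 4 K mice (Cγ1cre/+;Kmt2dfl/+) and 5 CK mice (Cγ1cre/+;Crebbpfl/+;Kmt2dfl/+), with 1 library per mouse. Every group, WT included, carried Cγ1-Cre, which is switched on in B cells activated by antigen, so the floxed genes are deleted around GC entry and stay intact in other cells. CREBBP is a histone acetyltransferase and KMT2D a histone H3 lysine methyltransferase, both acting at enhancers, and in each mutant the second copy of the gene was left intact.

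Each library gave from 17483706 to 21857738 fragments in peaks. Values are given as CPM, the fragment count scaled to library size with edgeR's TMM factors, a peak was called when edgeR's quasi-likelihood F-test, adjusted over all 65483 peaks, gave a p below 0.01, and the same test was run on the fragments summed over the window of each of 18058 genes. All mutant genotypes were compared with the same 4 WT mice, so these comparisons are not independent of each other. The mice, on a C57BL/6J background, are described as female and 8 weeks old, but reads from the Y chromosome were present in 2 of 4 WT, 2 of 4 C, 3 of 4 K and 2 of 5 CK libraries and close to 0 in the others. All 8 GC B cell and all 4 plasma cell marker genes had a promoter peak, whereas 4 of 5 T cell markers (Cd3e, Cd3g, Cd4, Cd8a) and 2 of 4 myeloid markers (Lyz2, Itgam) had none. Promoter signal summed over 6 centroblast markers was 534 ± 15.4 CPM in WT (SD, n = 4) and 534 ± 15.7 in CK (SD, n = 5), and over 6 centrocyte markers 429 ± 12.9 and 429.5 ± 12.3. In C and K the centroblast sums were 517 ± 12.8 and 549 ± 14.2 CPM, and the centrocyte sums 418 ± 11.3 and 425 ± 6.46 CPM (SD, n = 4 each). Such sums do not count cells, and by flow cytometry the authors report a CB to CC ratio shifted towards CBs in C and CK. The sum over the 8 GC B cell markers was 577 ± 31.3 CPM in WT (SD, n = 4), 541 ± 21.6 CPM in C (SD, n = 4), 561 ± 9.03 CPM in K (SD, n = 4) and 534 ± 31.8 CPM in CK (SD, n = 5). Its range was 559 to 624 CPM in WT and 491 to 575 CPM in CK, with 0 of the promoter peaks called, and its part in the results was not tested. The GC B cell list holds S1pr2 and the centroblast list holds Cxcr4, so these sums are not independent of the genes described here. These are bulk libraries, in which fewer cells of a type and less accessibility per cell cannot be told apart.

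In CK mice, accessibility fell around Ccr7 more than around any other of the 10 genes, and Ccr7 was the only window among them past the threshold. Its summed signal went from 192 ± 5.29 CPM (SD, n = 4) to 166 ± 3.86 CPM (SD, n = 5), a log2 fold change of -0.21 (SE 0.036, adjusted p = 2.50e-04). So 1 of 10 windows was lower and 0 were higher in CK, against 3.74% lower and 7.84% higher over all gene windows. At an unadjusted p under 0.05, 4 of 10 windows were lower (Ccr7, S1pr2, Cxcr4 and Arhgef1), against 11.9% of all windows, and none was higher. The median log2 fold change over the 10 windows was -0.061, beside 0.027 over all windows.

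Among single peaks in CK, 8 of 175 were less accessible and 2 were more accessible than in WT, against 3.3% and 3.54% of all peaks. The share lost lay near that background. The lean towards loss was wider than the calls: at an unadjusted p under 0.05, 44 of the 175 peaks (25.1%) were lower, against 14.2% of all peaks, and 7 (4.0%) were higher, against 14.7%. The median log2 fold change was -0.065 over the 175 peaks and 0.0029 over all peaks. The 111 of them outside promoters and the bodies of the 10 genes had a median of 10.3 CPM in WT. All 49311 peaks beyond 1 kb of a coding start had a median of 3.09 CPM. Stronger peaks can pass at smaller changes, and peaks of 1 window are neighbours, so the shares under 0.05 are not like for like. The count of called peaks depended on single mice: it was 6 without WT replicate 3 and 3 without WT replicate 4. It was 7 without WT replicate 1 or CK replicate 1, 2 or 4, and 13 without CK replicate 5. The lost peaks were 3 at Ccr7, 2 at Arhgef1 and 1 each at S1pr2, S1pr4 and Ccr6, and the gained peaks were 1 each at Gpr183 and Cxcr5. No peak passed at S1pr1, Gna13 or Cxcr4.

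Fewer of these peaks were called in the single mutants. In K mice, 1 of 175 peaks was gained and 1 was lost, both in the Gpr183 window, against 0.647% and 0.828% of all peaks. At an unadjusted p under 0.05, 23 of the 175 peaks (13.1%) were lower in K, against 10.4% of all peaks. A further 9 (5.14%) were higher, against 10.2%. The median log2 fold change in K was -0.030 over the 175 peaks and 0.0015 over all peaks. No window passed in K (edgeR), beside 1.77% higher and 0.941% lower over all genes. DESeq2 also called 0, and 1 of 10, Ccr7, had an unadjusted p under 0.05, against 26.9% of all windows in either direction. In C mice, edgeR and DESeq2 both called 0 of 175 peaks and 0 of 10 windows. Over all peaks 0.0596% were gained and 0.101% lost in C, and over all windows 0.072% were higher and 0.354% lower. At an unadjusted p under 0.05, 9 of the 175 peaks differed in C, against 8.9% of all peaks, and 0 of the 10 windows, against 9.98%.

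**Figure D1:**
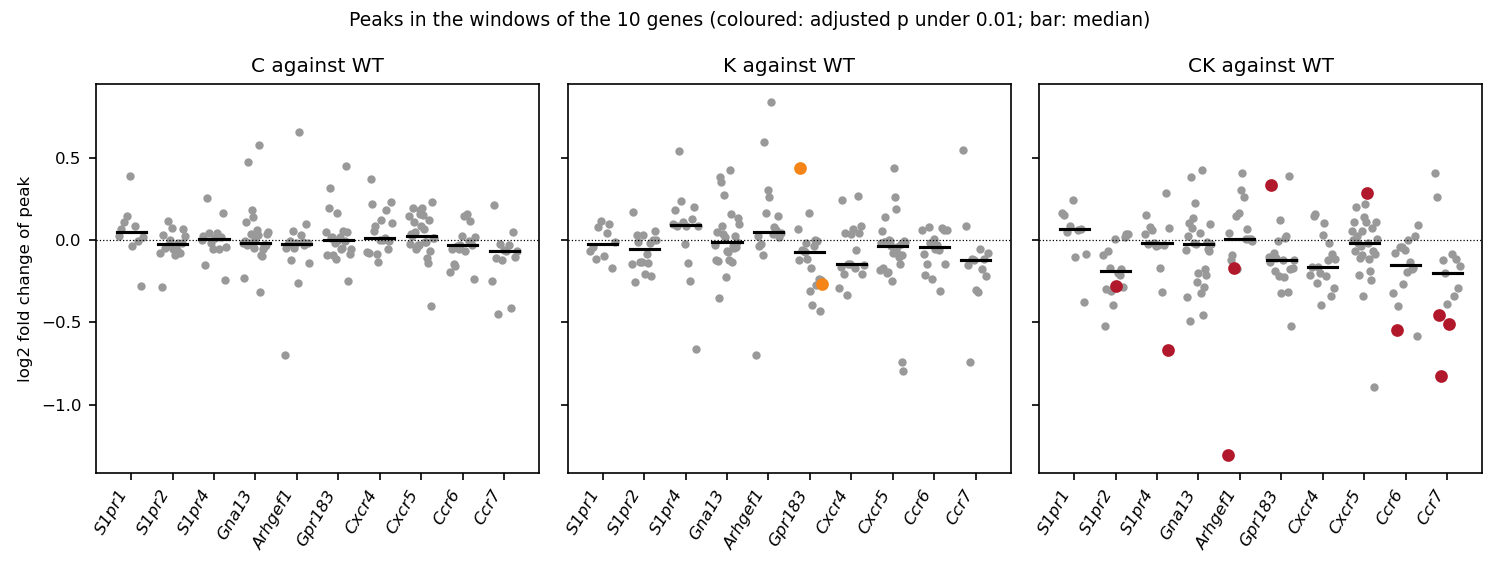
Log2 fold change of each of the 175 peaks against WT in C, K and CK, grouped by gene. Each point is 1 peak, coloured where its adjusted p was under 0.01, and the black bar is the median of the gene's peaks. In CK the medians of 8 genes lie below 0, the lowest being -0.20 at Ccr7 and -0.19 at S1pr2, and 8 coloured points lie below and 2 above the line.

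All 10 genes had an accessible promoter, taken as the peaks within 1 kb of a start site, including S1pr1, Gpr183 and Ccr7, which are known to be low in GC B cells. Levels are compared between genes as CPM per kb of peak in the 4 WT mice. Gna13 (46.95 ± 3.08, SD, n = 4 for each gene) and Cxcr4 (44.6 ± 1.28) had the most open promoters per kb. S1pr4 (32.9 ± 2.34) and Arhgef1 (32.3 ± 1.39) followed, then S1pr2 (23.9 ± 0.841) and Cxcr5 (22.7 ± 1.87). Gpr183 (15.2 ± 1.13), Ccr7 (14.8 ± 0.823), S1pr1 (12.4 ± 0.338) and Ccr6 (11.7 ± 1.605) were lowest. Within each of the pairs Gna13 and Cxcr4, S1pr4 and Arhgef1, S1pr2 and Cxcr5, Gpr183 and Ccr7, and S1pr1 and Ccr6, the ranges over the WT mice overlapped. The S1pr4 peak also covers exons of Ncln, and the Arhgef1 peak reaches into the 3′ end of Cd79a, so these levels are not those of 1 gene alone. Of the 14 promoter peaks, 0 were called in C or K and 1, at Arhgef1, was called in CK, with a median log2 fold change of -0.017 in CK over the 14. Over all 16172 peaks within 1 kb of a coding start, 8.61% were gained and 1.48% lost in CK, 1.63% gained and 0.334% lost in K, and 0.0557% gained and 0.0804% lost in C.

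**Figure D2:**
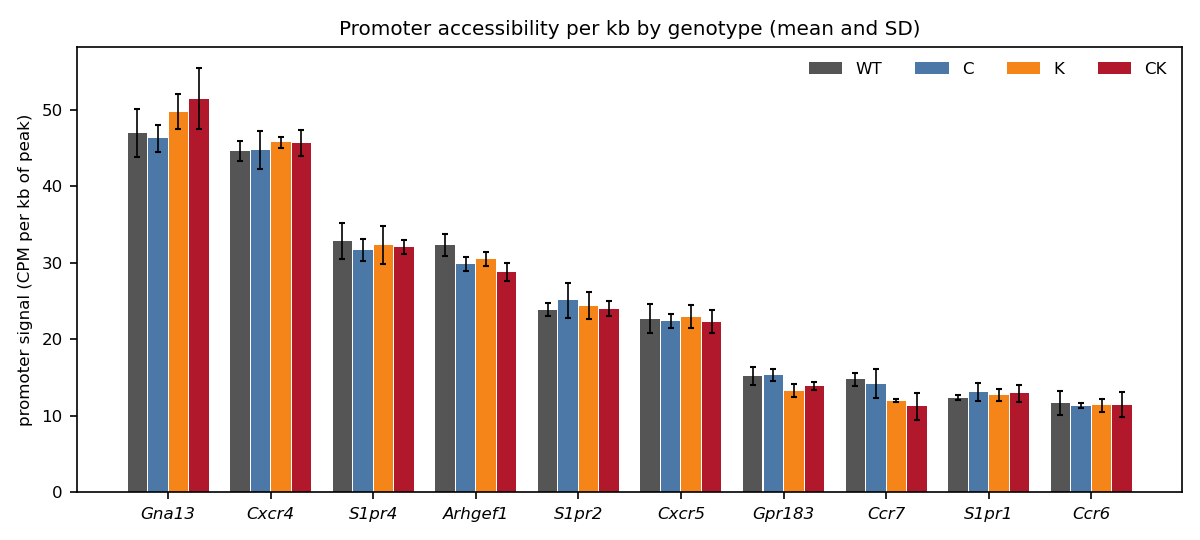
Promoter signal of the 10 genes in CPM per kb of peak, ordered by the WT mean. Bars are means and error bars SDs over 4 WT, 4 C, 4 K and 5 CK mice. The order of the genes stays broadly alike in the 4 genotypes, and the Ccr7 bars are lowest in CK, at 11.2 CPM per kb beside 14.8 in WT.

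The peaks near the 10 genes were divided by place. The 175 peaks comprised 14 at the promoters of the 10 genes, 26 elsewhere in their bodies, 24 at promoters of other genes and 111 in the remaining DNA. Their median log2 fold changes in CK were -0.017, -0.12, -0.0057 and -0.087. Over the whole table the medians were 0.055 for 16172 peaks within 1 kb of a coding start and -0.029 for the other 49311. Of the 8 lost peaks 7, and of the 2 gained peaks both, were in the class of 111, and 1 lost peak was among the 14. Of the other 49311 peaks of the whole table, 3.89% were lost and 1.88% gained in CK. By gene, the share of peaks below 0 in CK was highest at Ccr7 (11 of 13), Ccr6 (13 of 16), Cxcr4 (13 of 17) and S1pr2 (12 of 16), and lowest at S1pr1 (3 of 10) and Arhgef1 (6 of 16). It was 63.4% over the 175 peaks and 49.4% over all peaks, and these shares count changes of any size.

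The most accessible peak of each window outside promoters was not called at any of the 10 genes in any mutant genotype. In WT these peaks held between 23.97 CPM at Arhgef1 and 116 CPM at Gna13. The lowest log2 fold changes in CK were -0.21 (SE 0.067, adjusted p = 0.0351) at S1pr2, -0.20 (SE 0.071, adjusted p = 0.0577) at Cxcr4 and -0.17 (SE 0.049, adjusted p = 0.0204) at S1pr4. At S1pr4 every CK mouse was lower than the lowest WT mouse. At S1pr2 the highest CK mouse (53.6133 CPM) was practically level with the lowest WT mouse (53.6135 CPM). At the other 8 genes the groups overlapped.

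S1pr2, the receptor that confines B cells to the GC, lies at chr9:20962361-20976781 on the minus strand, in a window of 16 peaks. The summed signal was 444, 439.95, 424 and 459 CPM in the 4 WT mice. It was 425, 409.9, 395, 412 and 429.7 CPM in the 5 CK mice, which overlapped the WT range. The log2 fold change was -0.092 (SE 0.033, adjusted p = 0.0472), short of the threshold. Its promoter peak (chr9:20975460-20977275) did not separate the genotypes, with 43.4 ± 1.53 CPM in WT (SD, n = 4) and 43.6 ± 1.86 CPM in CK (SD, n = 5). The peak that passed lies 3.36 kb upstream of the start in intergenic DNA (chr9:20979687-20980597). It gave 47.3, 45.01, 45.9 and 52.1 CPM in the 4 WT mice, 41.6, 42.7, 46.5 and 52.4 CPM in the 4 C mice, 36.8, 39.6, 41.2 and 46.6 CPM in the 4 K mice and 41.9, 38.8, 36.4, 38.2 and 40.7 CPM in the 5 CK mice. Every CK mouse lay below every WT mouse, whereas the C and K mice overlapped WT. The log2 fold changes were -0.056 (SE 0.072, adjusted p = 0.878) in C, -0.21 (SE 0.072, adjusted p = 0.09) in K and -0.28 (SE 0.069, adjusted p = 0.00725) in CK. The CK call was lost on leaving out any 1 of WT replicates 1, 3 and 4 or CK replicates 2, 3 and 4, with adjusted p values up to 0.0449.

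S1pr4, a further sphingosine-1-phosphate receptor of lymphoid cells, lies at chr10:81497747-81500132 on the minus strand among 5 other coding genes. Its window of 14 peaks summed to 397 ± 9.56 CPM in WT (SD, n = 4) and 389 ± 6.6002 CPM in CK (SD, n = 5), a log2 fold change of -0.029 (SE 0.032, adjusted p = 0.547). A weak peak fell in CK: it lies 38.7 kb upstream of S1pr4 within an intron of Gna11, which encodes another G protein subunit (chr10:81538567-81539009), and held between 42 and 85 fragments per library. It gave 4.42, 4.07, 3.09 and 4.65 CPM in the 4 WT mice, 4.01, 3.29, 2.78 and 3.56 CPM in the 4 C mice, 2.55, 2.78, 2.51 and 2.399 CPM in the 4 K mice and 2.17, 2.7999, 2.89, 2.44 and 2.42 CPM in the 5 CK mice. The K and CK mice all lay below the WT mice, and the C mice overlapped them. The log2 fold change was -0.67 (SE 0.14, adjusted p = 0.00215) in CK and -0.66 (SE 0.15, adjusted p = 0.0101) in K, just outside the threshold. Without WT replicate 4 the CK call was lost (adjusted p = 0.0142).

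S1pr1, which drives exit in response to the same lipid, lies at chr3:115710433-115715072 on the minus strand with no other coding gene in its window. Its 10 peaks summed to 216 ± 7.74 CPM in WT (SD, n = 4), 222 ± 14.2 CPM in C (SD, n = 4), 213 ± 13.3 CPM in K (SD, n = 4) and 219 ± 6.76 CPM in CK (SD, n = 5). The log2 fold change in CK was 0.020 (SE 0.042, adjusted p = 0.767), and that of the promoter peak (chr3:115712875-115716507) was 0.062 (SE 0.063, adjusted p = 0.568). The lowest unadjusted p among its peaks was in C, at a weak intergenic peak 21.04 kb downstream of the start (chr3:115693471-115694588), with 3.38 ± 0.554 CPM in WT (SD, n = 4) and 4.43 ± 0.445 CPM in C (SD, n = 4) (adjusted p = 0.357, not called).

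The centres of the lost S1pr2 and S1pr4 peaks are given as examples of sequences that lost accessibility, as 300 bases of the GRCm38 plus strand, opposite to the strand of both genes. Capitals mark matches on either strand to any of 8 short motifs: octamer ATGCAAAT, ETS core AGGAAGT, E-box CAGNTG, AP-1 TGANTCA, STAT TTCNNNGAA, GC box GGGCGG, the ETS-IRF composite and NF-kB. In the S1pr2 centre (chr9:20979992-20980291) none of the 8 was matched. The S1pr4 centre (chr10:81538638-81538937) holds 1 ETS core, 1 STAT and 3 E-box matches, and the share of all 65483 peak centres with each motif is 14.2% for the ETS core, 8.23% for STAT and 56.9% for the E-box.
S1pr2 upstream peak: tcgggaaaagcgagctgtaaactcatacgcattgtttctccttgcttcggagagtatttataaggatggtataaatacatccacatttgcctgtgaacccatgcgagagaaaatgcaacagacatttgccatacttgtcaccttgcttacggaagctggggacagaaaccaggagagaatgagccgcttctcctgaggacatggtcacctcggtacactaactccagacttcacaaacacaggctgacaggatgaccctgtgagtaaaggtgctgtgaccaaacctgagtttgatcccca
S1pr4 distal peak: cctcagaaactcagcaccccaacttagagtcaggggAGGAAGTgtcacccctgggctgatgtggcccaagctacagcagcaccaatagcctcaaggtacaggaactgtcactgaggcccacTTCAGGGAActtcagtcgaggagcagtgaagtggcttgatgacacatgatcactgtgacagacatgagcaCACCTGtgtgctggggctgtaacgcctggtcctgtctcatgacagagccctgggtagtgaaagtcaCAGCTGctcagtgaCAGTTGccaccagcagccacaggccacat

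Gna13 encodes Gα13, through which S1PR2 acts and whose human gene is recurrently mutated in GC-derived lymphomas. It lies at chr11:109362831-109401369 on the plus strand. Its window of 25 peaks summed to 775, 756, 733 and 786 CPM in the 4 WT mice and 771, 719, 710.1, 749 and 782 CPM in the 5 CK mice. The groups overlapped, and the log2 fold change was -0.031 (SE 0.035, adjusted p = 0.553) in CK. The promoter peak (chr11:109361334-109363749) was not called, with 113 ± 7.44 CPM in WT (SD, n = 4) and 124 ± 9.56 CPM in CK (SD, n = 5) and a log2 fold change of 0.13 (SE 0.052, adjusted p = 0.0871). The peak of the window with the lowest p, 48.1 kb downstream of the start (chr11:109410017-109411901, intergenic), gave -0.17 (SE 0.055, adjusted p = 0.0328) in CK, also not called.

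Arhgef1 encodes the exchange factor that acts directly downstream of Gα13, and lies at chr7:24902912-24926594 on the plus strand, next to Cd79a, which encodes a signalling chain of the B cell receptor. The window of 16 peaks fell short of the threshold in CK, with 429 ± 12.1 CPM in WT (SD, n = 4), 409 ± 9.05 CPM in CK (SD, n = 5) and a log2 fold change of -0.069 (SE 0.027, adjusted p = 0.0643). Arhgef1 was the only gene of the 10 whose promoter peak passed. This peak (chr7:24901970-24905194) covers coding exon and UTR sequence of Arhgef1 and the UTR of Cd79a, and gave 119, 129, 119.6 and 127 CPM in the 4 WT mice, 111, 114, 113 and 119 CPM in the 4 C mice, 114, 121, 115 and 116 CPM in the 4 K mice and 111, 104, 108, 111 and 117 CPM in the 5 CK mice. All C and all CK mice lay below the lowest WT mouse, by a small margin. The log2 fold changes were -0.12 (SE 0.042, adjusted p = 0.336) in C, -0.088 (SE 0.042, adjusted p = 0.229) in K and -0.17 (SE 0.040, adjusted p = 0.00494) in CK. Leaving out WT replicate 2 or 4 or CK replicate 2, 3 or 4 ended the CK call, with adjusted p values up to 0.025.

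The largest fold change of any called peak near the 10 genes was at the far edge of the Arhgef1 window, 49.98 kb upstream of its start and 8889 bp from the start of Gm9844 (chr7:24852541-24853324, intergenic). It is a weak peak, with between 32 and 122 fragments per library. It gave 4.42, 4.23, 5.72 and 5.15 CPM in the 4 WT mice, 2.55, 2.301, 2.73 and 4.57 CPM in the 4 C mice, 2.81, 1.87, 3.14 and 4.11 CPM in the 4 K mice and 1.92, 2.26, 1.94, 1.59 and 2.19 CPM in the 5 CK mice. Every CK and every K mouse lay below every WT mouse, as did all C mice but replicate 4, and no CK mouse exceeded 2.26 CPM. The log2 fold changes were -0.70 (SE 0.19, adjusted p = 0.147) in C, -0.70 (SE 0.20, adjusted p = 0.0356) in K and -1.31 (SE 0.19, adjusted p = 9.07e-05) in CK, and the CK call held on leaving out each mouse in turn. Its central 300 bases (chr7:24852782-24853081, GRCm38 plus strand) hold 1 AP-1 match, in capitals, a motif found in 8.93% of all peak centres.
Arhgef1 distal peak: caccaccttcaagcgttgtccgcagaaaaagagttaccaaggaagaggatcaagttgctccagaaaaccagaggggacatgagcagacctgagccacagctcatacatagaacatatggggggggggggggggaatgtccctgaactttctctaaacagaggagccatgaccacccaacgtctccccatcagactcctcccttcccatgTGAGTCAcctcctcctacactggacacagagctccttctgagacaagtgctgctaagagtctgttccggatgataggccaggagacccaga

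Gpr183, the oxysterol receptor also known as EBI2, lies at chr14:121952551-121965195 on the minus strand within an intron of Ubac2, close to another receptor gene, Gpr18. Its window of 21 peaks summed to 519 ± 15.1 CPM in WT (SD, n = 4), 498 ± 32.6 CPM in K (SD, n = 4) and 498 ± 16.3 CPM in CK (SD, n = 5), with log2 fold changes of -0.059 (SE 0.042, adjusted p = 0.374) in K and -0.061 (SE 0.039, adjusted p = 0.278) in CK. Single peaks in it moved in opposite directions. A peak 55.1 kb downstream of the start, in an intron of Ubac2 and 5389 bp from the start of Gpr18 (chr14:121909729-121910392), gave 17.5, 19.3, 17.6 and 19.5 CPM in the 4 WT mice, 21.3, 22.7, 20.98 and 19.5 CPM in the 4 C mice, 22.98, 24.6, 25.9 and 26.6 CPM in the 4 K mice and 22.3, 21.8, 23.9, 23.96 and 24.7 CPM in the 5 CK mice. Every K and every CK mouse lay above every WT mouse, and the C mice overlapped WT and CK. It rose by 0.44 (SE 0.070, adjusted p = 9.19e-04) on the log2 scale in K and by 0.34 (SE 0.067, adjusted p = 0.00134) in CK, and was the only peak of the 175 called in both. The CK call held on leaving out each mouse in turn.

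A second Ubac2 intron peak, 48.04 kb upstream of Gpr183 (chr14:122012507-122013970), was called only in K. It gave 33.7, 30.5, 32.4 and 33.2 CPM in the 4 WT mice, 26.9, 25.5, 27.4 and 27.9 CPM in the 4 K mice and 30.1, 32.6, 27.5, 29.2 and 29.7 CPM in the 5 CK mice. The K mice lay below all WT mice, while the CK mice overlapped both groups. The log2 fold change was -0.27 (SE 0.058, adjusted p = 0.00777) in K and -0.12 (SE 0.054, adjusted p = 0.136) in CK, and CK against K gave an adjusted p of 0.51, so a difference between K and CK was not shown. The K call was lost on leaving out any 1 of 8 mice (WT replicates 1, 3 and 4, the 4 K mice and C replicate 1), with adjusted p values up to 0.0293. The Gpr183 promoter peak (chr14:121960668-121964218) gave -0.17 (SE 0.059, adjusted p = 0.0944) in K and -0.12 (SE 0.056, adjusted p = 0.159) in CK on the log2 scale, not called. The centre of the peak gained in K and CK (chr14:121909910-121910209, GRCm38 plus strand) holds 2 E-box matches and 1 ETS core match, in capitals.
Gpr183 gained peak: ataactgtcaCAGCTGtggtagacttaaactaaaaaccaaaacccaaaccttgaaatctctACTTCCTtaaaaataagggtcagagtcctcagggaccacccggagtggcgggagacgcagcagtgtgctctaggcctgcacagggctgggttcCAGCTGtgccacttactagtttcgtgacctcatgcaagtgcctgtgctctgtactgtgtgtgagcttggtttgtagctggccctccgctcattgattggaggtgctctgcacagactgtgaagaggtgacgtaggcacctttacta

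Cxcr4, the receptor that holds centroblasts in the dark zone, lies at chr1:128588199-128592293 on the minus strand with no other coding gene in its window. Its 17 peaks summed to 418, 391, 418 and 447 CPM in the 4 WT mice, 400.4, 396, 409 and 449 CPM in the 4 C mice, 397, 369, 419 and 433 CPM in the 4 K mice and 391, 382, 365, 397 and 387 CPM in the 5 CK mice. The CK mice lay low but reached into the WT range. The log2 fold change in CK was -0.12 (SE 0.044, adjusted p = 0.0473). It was -0.037 between the mice with Y chromosome reads (2 CK, 2 WT) and -0.19 between those without (3 CK, 2 WT). The promoter peak (chr1:128590749-128593500) gave 123 ± 3.53 CPM in WT (SD, n = 4) and 126 ± 4.68 CPM in CK (SD, n = 5), a log2 fold change of 0.033 (SE 0.040, adjusted p = 0.635). The lowest p was at a peak 4.86 kb downstream of the start, past the 3′ end of the gene (chr1:128587075-128587795, intergenic), with 27.95 ± 5.54 CPM in WT (SD, n = 4) and 21.3 ± 3.52 CPM in CK (SD, n = 5). Its log2 fold change of -0.39 (SE 0.12, adjusted p = 0.0225) was not called, and among the fits without 1 mouse it passed in that without CK replicate 5 (adjusted p = 0.00817).

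Cxcr5, the receptor that brings B cells into the follicle, lies at chr9:44511787-44561877 on the minus strand and had the most peaks, 27. They summed to 819 ± 32.3 CPM in WT (SD, n = 4) and 799.7 ± 26.5 CPM in CK (SD, n = 5), a log2 fold change of -0.035 (SE 0.036, adjusted p = 0.509). An intergenic peak 3.78 kb upstream of the outermost annotated start rose in CK (chr9:44565331-44565986). It gave 23.4, 20.5, 21.2 and 18.9 CPM in the 4 WT mice, 23.2, 19.99, 22.3 and 22.5 CPM in the 4 C mice, 23.2, 23.1, 24.9 and 24.6 CPM in the 4 K mice and 25.8, 25.8, 26.4, 24.1 and 25.7 CPM in the 5 CK mice. Every CK mouse lay above every WT mouse, while the C and K groups overlapped WT. The log2 fold changes were 0.065 (SE 0.069, adjusted p = 0.842) in C, 0.19 (SE 0.068, adjusted p = 0.103) in K and 0.28 (SE 0.065, adjusted p = 0.00419) in CK. The CK call was lost without WT replicate 2, 3 or 4 or CK replicate 1 or 3, with adjusted p values up to 0.0267. The strongest Cxcr5 promoter peak (chr9:44524119-44527328) lies at an internal start site, 36.2 kb downstream of the outermost start and so far from the gained peak. It gave a log2 fold change of -0.034 (SE 0.056, adjusted p = 0.749) in CK.

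Ccr6, a chemokine receptor of activated and memory B cells, lies at chr17:8236043-8257141 on the plus strand. Its 16 peaks summed to 355 ± 26.97 CPM in WT (SD, n = 4) and 339.8 ± 11.3 CPM in CK (SD, n = 5), a log2 fold change of -0.062 (SE 0.039, adjusted p = 0.257). This value was -0.13 between mice with Y chromosome reads and 0.014 between those without. Its strongest promoter peak (chr17:8243517-8246889) was at 39.5 ± 5.05 CPM (SD, n = 4) and 39.4 ± 5.75 CPM (SD, n = 5). A weak intergenic peak 38.3 kb upstream of the start, whose nearest coding start is that of Fgfr1op (chr17:8197612-8197913, between 68 and 127 fragments per library), fell in CK. It gave 5.91, 5.27, 5.44 and 5.76 CPM in the 4 WT mice, 4.77, 5.59, 5.005 and 4.83 CPM in the 4 C mice, 3.98, 4.53, 4.87 and 5.86 CPM in the 4 K mice and 3.397, 4.25, 4.12, 3.39 and 3.98 CPM in the 5 CK mice. No CK mouse reached the lowest WT mouse, with C and K values spread over the WT range and below it. The log2 fold change was -0.55 (SE 0.12, adjusted p = 0.00259), and 0.0109 was the adjusted p without WT replicate 4.

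Ccr7, the receptor that takes B and T cells towards the T cell zone, lies at chr11:99144196-99155077 on the minus strand with no other coding gene in its window. The summed signal of its 13 peaks was 197, 185, 192 and 194 CPM in the 4 WT mice. It was 175, 173, 194 and 189 CPM in the 4 C mice and 168, 168, 179.6 and 184 CPM in the 4 K mice. It was lowest in CK, at 167, 161, 169, 169 and 163 CPM in the 5 CK mice. Every K and every CK mouse lay below every WT mouse, and the C mice overlapped WT and K. The log2 fold changes were -0.072 (SE 0.038, adjusted p = 0.556) in C, -0.13 (SE 0.038, adjusted p = 0.0315) in K and -0.21 (SE 0.036, adjusted p = 2.50e-04) in CK, of which CK passed. The CK value held on leaving out each of the 17 mice in turn, with adjusted p between 1.63e-04 and 0.00146. It was -0.18 between mice with Y chromosome reads and -0.23 between those without. Against C, CK gave -0.14 (SE 0.036, adjusted p = 0.015) and against K -0.079 (SE 0.036, adjusted p = 0.599), neither past the threshold.

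Of the 13 Ccr7 peaks, 11 had a log2 fold change below 0 in CK, with a median of -0.20. 3 of them passed, all outside the gene. The peak 8.01 kb upstream of the start (chr11:99162672-99163496, intergenic) gave 18.04, 16.9, 17.5 and 21.7 CPM in the 4 WT mice, 16.5, 16.7, 18.8 and 18.8 CPM in the 4 C mice, 13.3, 13.3, 15.9 and 16.98 CPM in the 4 K mice and 13.2, 11.9, 11.4, 14.7 and 14.001 CPM in the 5 CK mice. All CK mice lay below all WT and all C mice, and the K mice overlapped both WT and CK. The log2 fold changes were -0.067 (SE 0.099, adjusted p = 0.896) in C, -0.31 (SE 0.10, adjusted p = 0.0646) in K and -0.51 (SE 0.096, adjusted p = 8.56e-04) in CK. This was also the only peak of the 175 that differed between CK and C, with a log2 fold change of -0.44 (SE 0.096, adjusted p = 0.00771).

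The other 2 lie past the 3′ end of Ccr7. The peak 18.2 kb downstream of the start (chr11:99136516-99137252, intergenic, between 29 and 91 fragments per library) gave 4.63, 3.55, 4.26 and 3.82 CPM in the 4 WT mice, 3.49, 2.301, 3.49 and 2.65 CPM in the 4 C mice, 2.28, 1.76, 1.99 and 3.599 CPM in the 4 K mice and 1.92, 2.32, 3.12, 2.34 and 1.67 CPM in the 5 CK mice. All C and CK mice lay below all WT mice, and K did so in 3 of 4. The log2 fold changes were -0.45 (SE 0.19, adjusted p = 0.482) in C, -0.74 (SE 0.20, adjusted p = 0.0283) in K and -0.83 (SE 0.19, adjusted p = 0.00395) in CK. The peak 22.6 kb downstream of the start (chr11:99132000-99132914, intergenic) gave 15.2, 13.003, 16.3 and 14.9 CPM in the 4 WT mice and 9.797, 9.26, 11.8, 10.8 and 12.6 CPM in the 5 CK mice, again without overlap, with a log2 fold change of -0.45 (SE 0.11, adjusted p = 0.00753). These calls changed when mice were left out, unlike that of the upstream peak: the first was lost without WT replicate 1, 3 or 4 or CK replicate 1, and the second without WT replicate 1, 3 or 4 or CK replicate 1, 2 or 4.

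The Ccr7 promoter peak (chr11:99154979-99155613) gave 9.42, 9.77, 8.62 and 9.69 CPM in the 4 WT mice, 7.48, 7.702, 7.69 and 7.47 CPM in the 4 K mice and 7.93, 7.05, 8.61, 5.83 and 6.28 CPM in the 5 CK mice. The K and CK mice lay below all WT mice, but the log2 fold change of -0.39 (SE 0.11, adjusted p = 0.0186) in CK was not called, and among the fits without 1 mouse it passed in that without CK replicate 3. The most accessible peak, 13.1 kb upstream of the start (chr11:99167603-99168800), held 71.7 ± 1.97 CPM in WT (SD, n = 4) and 67.6 ± 3.25 CPM in CK (SD, n = 5), a log2 fold change of -0.087 (SE 0.045, adjusted p = 0.21). The strongest peak of the window was thus not among the 3 called, whose WT means were between 4.07 and 18.5 CPM.

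GC B cells, which are CD38- and FAS+, were enriched with PNA beads before the sort. Naive and follicular B cells express Ccr7, and their share in these libraries was not measured. Markers of these cells were examined beside this result. Of Fcer2a, Cr2, Cd38 and Klf2, the promoter peak of 1 was called: that of Fcer2a, which encodes CD23, fell from 28.5 ± 1.702 CPM in WT (SD, n = 4) to 16.3 ± 3.75 CPM in K (SD, n = 4) and 17.3 ± 1.18 CPM in CK (SD, n = 5), a log2 fold change of -0.71 (SE 0.11, adjusted p = 8.82e-05) in CK. The promoter peaks of Cr2, Cd38 and Klf2 were not called. The Klf2 promoter peak gave a log2 fold change of 0.018 (SE 0.048, adjusted p = 0.849) in CK. The Klf2 window gave -0.082 (SE 0.034, adjusted p = 0.0831), not called, with every CK mouse below every WT mouse. Among 6 centrocyte markers, the Ebi3 promoter was called lower in K and in CK, at log2 fold changes of -0.86 (SE 0.11, adjusted p = 1.27e-04) and -0.54 (SE 0.10, adjusted p = 8.60e-04). The part of such cells in the Ccr7 values was not tested.

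The centres of the upstream and the nearer downstream Ccr7 peaks, which carried the largest changes there, are given as 300 bases of the GRCm38 plus strand (chr11:99162934-99163233 and chr11:99136734-99137033). In the upstream peak an E-box and an AP-1 match overlap, and a second E-box follows, while the downstream peak holds 1 E-box match, with matches in capitals. The AP-1 motif occurred in 8.93% and the E-box in 56.9% of all peak centres.
Ccr7 upstream peak: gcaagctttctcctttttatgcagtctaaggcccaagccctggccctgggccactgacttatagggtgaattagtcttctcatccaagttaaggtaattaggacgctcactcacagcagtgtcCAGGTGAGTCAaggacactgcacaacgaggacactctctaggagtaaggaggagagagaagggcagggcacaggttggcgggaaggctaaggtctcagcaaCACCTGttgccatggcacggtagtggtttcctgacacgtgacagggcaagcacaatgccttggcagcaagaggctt
Ccr7 downstream peak: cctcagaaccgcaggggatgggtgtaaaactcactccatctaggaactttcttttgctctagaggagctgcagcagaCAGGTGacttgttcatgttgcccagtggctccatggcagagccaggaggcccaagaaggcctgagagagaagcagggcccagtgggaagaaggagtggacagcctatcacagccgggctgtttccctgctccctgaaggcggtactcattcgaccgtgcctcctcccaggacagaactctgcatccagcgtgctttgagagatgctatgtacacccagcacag

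**Figure D3:**
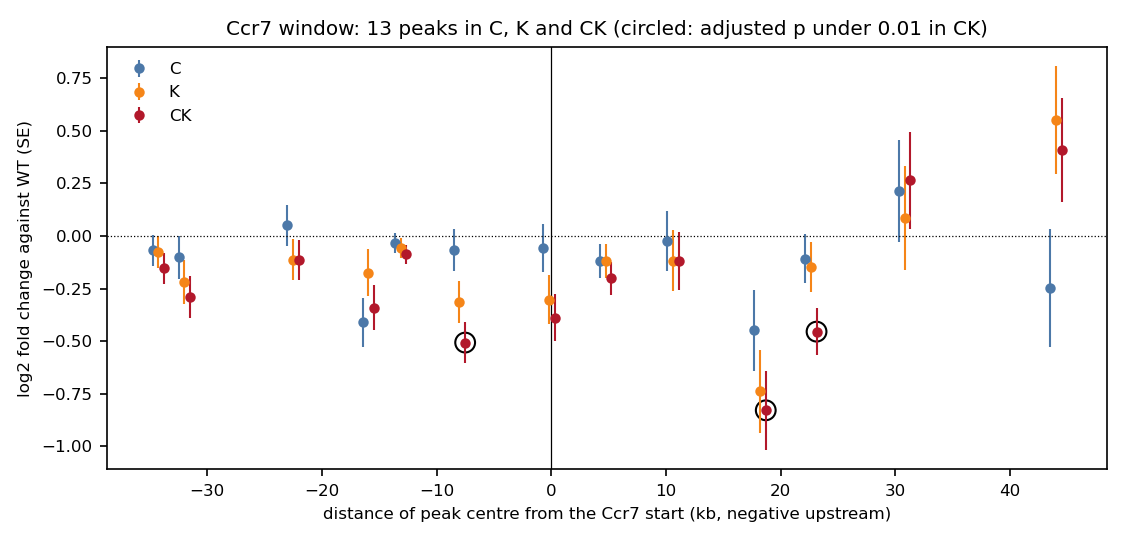
Log2 fold change against WT (with SE) of the 13 peaks in the Ccr7 window, by distance of the peak centre from the start site in kb, for C, K and CK, set slightly apart for display. Circles mark the 3 peaks called in CK, at -0.51, -0.83 and -0.45. Both peaks with CK values above 0 are the weakest, at 0.921 and 1.08 CPM in WT.

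**Figure D4:**
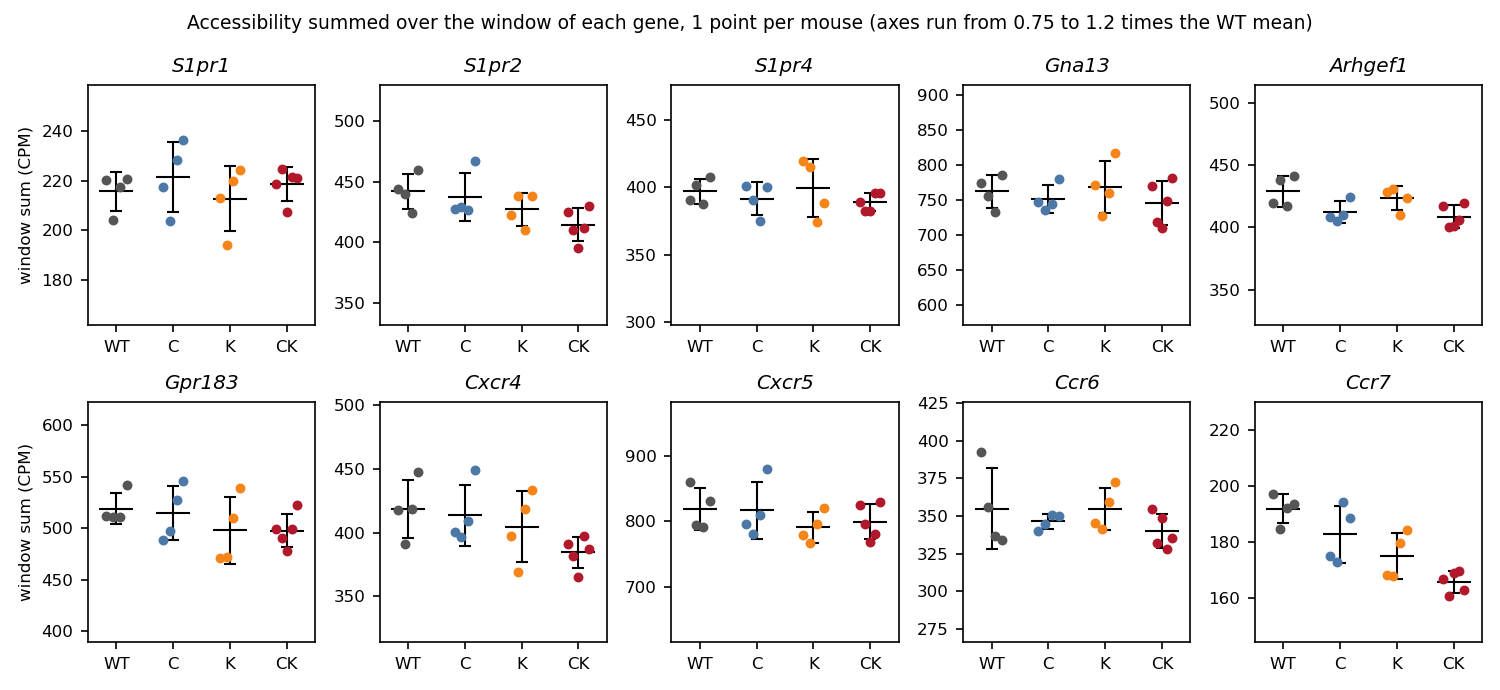
Accessibility summed over the peaks of each gene's window, in CPM, with 1 point per mouse and the mean and SD in black. Each axis runs from 0.75 to 1.2 times the WT mean and does not start at 0. Only at Ccr7 do all K and all CK mice lie below all WT mice, and the other 9 windows overlap between WT and each mutant.

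**Figure D5:**
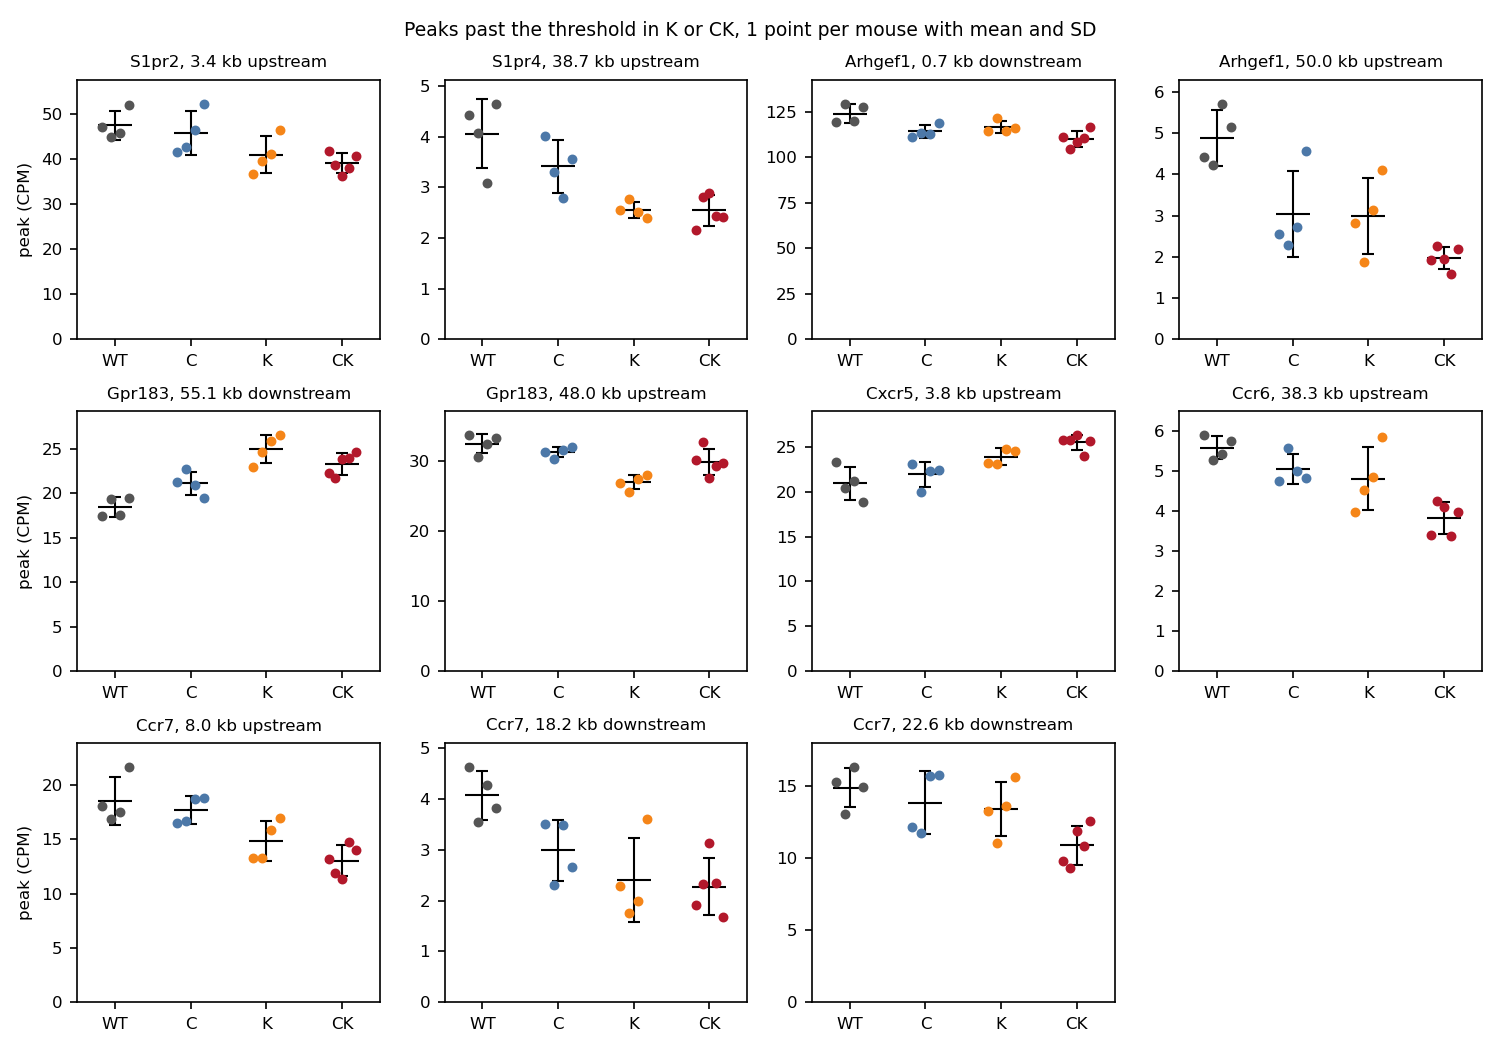
CPM of the 11 peaks called in K or CK, with 1 point per mouse and the mean and SD in black, on axes that start at 0. Titles give the gene and the distance of the peak centre from its start. WT and CK do not overlap in 10 of the 11 panels, the exception being the Gpr183 peak 48.0 kb upstream, which was called in K. The panels were chosen by calls on these same mice, so the lack of overlap is no further support.

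The genotypes were also compared with each other. CK differed from K at 0 of 175 peaks by edgeR and 0 by DESeq2, with 0.00458% gained and 0.00458% lost over all peaks. Of the 175, 16 had an unadjusted p under 0.05, against 7.35% of all peaks. Among these 16, 11 were lower in CK (6.29% of the 175, against 3.21% of all peaks) and 5 higher (2.86%, against 4.14%). CK differed from C at 1 of 175 peaks, the Ccr7 upstream peak, beside 0.907% gained and 0.77% lost over all peaks. At an unadjusted p under 0.05, 26 of 175 (14.9%) were lower in CK than in C, against 10.1% of all peaks. Another 5 (2.86%) were higher, against 11.1%. K differed from C at 0 of 175 by edgeR and by DESeq2, beside 0.283% gained and 0.505% lost, and 23 of 175 had an unadjusted p under 0.05, against 17.9%. A further term in the same fit asked whether C and K changes add up to that of CK. No peak of the 175 departed from additivity by edgeR or DESeq2, against 0.00611% above and 0.00458% below the sum over all peaks, and 5 of 175 had an unadjusted p under 0.05, against 3.73%. For the Ccr7 window the departure was -0.0076 (SE 0.053, adjusted p = 1).

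A further 40 genes of the same pathways were examined, of which 38 had a window with peaks and 35 a promoter peak. In C and K, edgeR called none of the 38 windows. In CK, 4 were lower and 3 higher, with a median log2 fold change of -0.046 over the 38. The lower windows were those of Gna12, which encodes the G protein closest to Gα13, at -0.16 (SE 0.029, adjusted p = 3.50e-04), Rac2, a small GTPase of blood cells, at -0.16 (SE 0.028, adjusted p = 2.99e-04), Cd69, which retains lymphocytes by removing S1PR1 from the surface, at -0.18 (SE 0.047, adjusted p = 0.00907), and Dock2, which activates Rac downstream of chemokine receptors, at -0.12 (SE 0.029, adjusted p = 0.00532). The higher windows were those of Rgs16, an inhibitor of G protein signalling, at 0.30 (SE 0.067, adjusted p = 0.00253), Sphk1, a kinase that makes sphingosine-1-phosphate, at 0.19 (SE 0.040, adjusted p = 0.00142), and Rock1, a kinase that drives actomyosin contraction, at 0.16 (SE 0.039, adjusted p = 0.00544). Of the 35 promoters, 1, at Sphk1, was called, gained in both K and CK, beside 1.63% of all promoter peaks gained in K and 8.61% in CK. It gave 20.3 ± 0.737 CPM in WT (SD, n = 4), 25.8 ± 2.31 CPM in K (SD, n = 4) and 26.7 ± 2.06 CPM in CK (SD, n = 5), and log2 fold changes of 0.34 (SE 0.075, adjusted p = 0.00877) and 0.39 (SE 0.071, adjusted p = 6.11e-04). Over all gene windows the shares were 3.74% lower and 7.84% higher.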

How the data were processed

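Accessibility was measured in 17 bulk Omni-ATAC libraries of 60000 sorted GC B cells each. The authors aligned reads to mm10 with the nf-core ATAC-seq pipeline (version 1.2.1), merged the peaks of all libraries into 1 consensus set and deposited raw fragment counts per peak, made with featureCounts 2.0.1, without normalization. A further 7 samples of sorted CB or CC cells were not analysed here.

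From these counts, peaks with at least 10 fragments over all libraries were kept, which removed 0. edgeR 4.0.16 (R 4.3.3) fitted 1 coefficient per genotype to all libraries with TMM factors, and p-values from its quasi-likelihood F-test were adjusted by the Benjamini-Hochberg method, over 65483 peaks or 18058 gene windows. DESeq2 1.42.0 was an alternative. The p-values measure the spread between mice. Depth, at 17483706 to 21857738 fragments in peaks per library, limits weak peaks most. In simulated counts at this depth (CK against WT), 100 of 200 peaks changed by 1.5-fold and 176 of 200 changed by 2-fold were called, as were 154 of 200 windows changed by 1.2-fold. The changed peaks and windows were drawn from those above a minimum WT count, with a spread set by the fitted trend. Recovery of weaker ones, or of ones with a wider spread, was not measured.

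For each gene the text names the promoter peak with the highest WT signal, the most accessible peak outside promoters, and up to 3 called peaks, or else the peak with the lowest unadjusted p. The genes and lists were chosen with earlier results of these data known, and 1 marker gene is not reported here. Motifs were searched as exact letters in the central 300 bases of every peak (GRCm38). Deviations from the genotype means correlated at -0.082 to 0.25 between libraries with the same replicate number (24 pairs). Libraries with different numbers correlated at -0.27 to 0.31 (84 pairs), so a value within that range does not show pairing. The median was 0.103 for the same number and -0.024 for different numbers. All 4 pairs of C with WT were above 0.1, so a pairing there is possible, and blocking changed no call in C. The values printed for C come from the fit without a block. In K and CK the numbers were not taken to pair the mice, though a pairing there was not excluded.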

Additional observations from a re-analysis of the deposited data

Results flagged for a closer look

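In 8 of 172 groups of 4 or 5 mice, 1 mouse stood apart from the rest by Dixon's criterion, and chance flags about 1 in 20 groups. The S1pr2 window summed to 466.6 CPM in C replicate 4, against 426.3 to 429 in the other C mice, and the Gpr183 window to 541.5 CPM in WT replicate 4, against 511 to 512. At the promoter peaks, S1pr2 was low in C replicate 3 at 39.38 CPM (others 46.91 to 48.26), Gna13 was high in K replicate 1 at 128.3 CPM (others 116.4 to 118.1), and Cxcr5 was high in C replicate 4 at 97.7 CPM (others 89.86 to 89.98). Among the most accessible peaks outside promoters, that of S1pr4 held 71.21 CPM in K replicate 1 (others 62.75 to 64.05) and that of Ccr6 held 83.7 CPM in WT replicate 1 (others 74.09 to 75.27). The Cxcr5 peak gained in CK was lowest among the CK mice in replicate 4, at 24.06 CPM against 25.7 to 26.36, still above the highest WT mouse. None of these mice was left out of the tests.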

How the results depend on the processing

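The lower Ccr7 window in CK passed the adjusted p of 0.01 under every alternative that kept that threshold alone, at log2 fold changes from -0.23 to -0.15. Counts of called peaks near the 10 genes were less stable, and weak peaks are limited by depth. For CK (10 called), the count was 24 at an adjusted p under 0.05, 3 with a 1.5-fold minimum, 6 with 25 kb and 23 with 100 kb flanks. For K (2 called) it was 6, 0, 0 and 6 under the same settings, 4 with GC content offsets, and 1 with the Y chromosome signal as a covariate or with only WT and K fitted. For CK against C (1 called) it was 2 with DESeq2, total counts or the Y covariate, 0 with GC offsets or the 1.5-fold minimum, 6 at 0.05 and 3 with 100 kb flanks. For K against C (0 called) it was 1 with GC offsets and 5 at 0.05. Windows called in CK (1) were 2 with 100 kb flanks, 3 at 0.05 and 0 with the fold minimum, and in K (0) 1 at 0.05. The 100 kb flanks include more peaks, and the cause of the other shifts was not tested.

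Leaving out each mouse in turn gave 3 (without WT replicate 4) to 13 (without CK replicate 5) called peaks in CK, 1 to 3 in K and 0 to 3 for CK against C. With the replicate number as a block, CK had 20 called peaks and 3 called windows (Ccr7, S1pr2 at -0.11 and Cxcr4 at -0.12), K had 3 peaks and 1 window (Ccr7), CK against C had 5 peaks and K against C had 3. The labels do not say what the replicate numbers mean, and 10 of 17 libraries correlated best with one of their own number. Whether the numbers pair the K and CK mice was thus not settled.

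Among the values of single windows and named peaks under the alternatives, 694 kept their side of the threshold or moved by less than the spread between mice, 12 lost and 8 gained a call and 6 moved further. The sign changed in 42 of these values, none of them for a result called in the fit as reported.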
